A study of Homo sapiens with 32 samples.

Results

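Of 78074 merged HNF4A-bound regions in 3 human pancreatic ductal adenocarcinoma cell lines, 2325 (2.98%) held a peak in every one of 14 chromatin immunoprecipitation sequencing (ChIP-seq) peak lists made with an antibody to all HNF4A isoforms (pan-HNF4A). These 2325 are called core regions here. They were chosen by the presence of a peak in each list, by merging peaks of the 14 lists that overlapped by at least 1 bp and keeping the merged regions that held a peak of all 14. Because the lists themselves chose the members, the strength of the core regions in those lists is given as a description, with no test.

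The lists came from 7 groups of 2 libraries. Panc10.05 cells carried doxycycline-induced HNF4A of type P1-a2, at 25 ng/mL doxycycline, or P2-a8, at 12.5 ng/mL, so the dose is not the same for both isoforms there. BxPC3 cells carried the same pair of isoforms, both at 500 ng/mL. The labels give no doxycycline for ASPC1 cells. They were studied under CRISPR interference, which represses a promoter with a guide RNA, aimed at the P1 promoter (sgP1) or the P2 promoter (sgP2), beside the genotype sgNC. In ASPC1 sgP2 and sgNC, 4 further libraries were made with an antibody to P1 isoforms, and these lists were not used to choose the core regions. The labels give neither the promoter that drives the induced isoforms nor whether a line is a clone, and they do not say that replicates were separate cultures, so the tests measure only the spread between libraries. For BxPC3 P2-a8 the sample titles read P1-a8, and the genotype label was followed.

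HNF4A is a nuclear receptor that binds DNA as a homodimer and controls liver, intestinal and pancreatic epithelial genes. It is transcribed from a distal P2 and a proximal P1 promoter. P1 isoforms carry an N-terminal activation domain that P2 isoforms lack, while the DNA-binding domain is shared. Its preferred site is a direct repeat of a short nuclear receptor element, and the letters CAAAGTCCA mark a form of the site that HNF4 receptors bind and most other nuclear receptors do not.

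A small share of the promoters that lie inside core regions held those letters. RefSeq promoter windows of GRCh38.p14, from 250 bases before to 50 after a gene start, were searched on both strands. Core regions wholly contained 271 windows, in 213 regions, and 12 windows (4.43%) held CAAAGTCCA or its reverse complement. In 9 of the 12, the letters lay within 100 bp of the median summit of the 14 lists, the summit being the point of highest signal in a peak. The 8 of those 9 that can be shown with upstream sequence are given below, 5′ to 3′ on the gene's strand, up to the gene start at most, with the HNF4 letters in capitals. They are SLCO2B1 (chr11:75159727-75159807, plus strand), CIDEB (chr14:24307988-24308068, minus), GPR35 (chr2:240605359-240605429, plus), TREH (chr11:118679679-118679759, minus), ERF (chr19:42253982-42254062, minus), KAT14 (chr20:18144849-18144901, plus), ABLIM1 (chr10:114685004-114685059, minus) and TMCC3 (chr12:94616016-94616096, minus).
SLCO2B1: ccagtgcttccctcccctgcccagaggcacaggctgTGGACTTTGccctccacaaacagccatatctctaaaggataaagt
CIDEB: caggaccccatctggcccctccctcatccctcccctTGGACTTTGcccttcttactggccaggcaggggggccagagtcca
GPR35: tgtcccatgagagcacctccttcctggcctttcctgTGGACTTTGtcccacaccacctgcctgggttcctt
TREH: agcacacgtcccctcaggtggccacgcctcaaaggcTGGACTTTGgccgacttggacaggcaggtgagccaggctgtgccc
ERF: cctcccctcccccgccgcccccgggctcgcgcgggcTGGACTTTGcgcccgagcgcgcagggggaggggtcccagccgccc
KAT14: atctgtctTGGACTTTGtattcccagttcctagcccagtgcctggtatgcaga
ABLIM1: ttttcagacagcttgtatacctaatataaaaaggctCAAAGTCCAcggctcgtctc
TMCC3: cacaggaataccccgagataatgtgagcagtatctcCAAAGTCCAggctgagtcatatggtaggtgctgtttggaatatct

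The strength of these promoter peaks is given as a percentile of the authors' fold enrichment within each list, 100 being the strongest peak of that list. At SLCO2B1, which encodes an organic anion transporter, the percentiles were 98.8 and 97.8 in Panc10.05 P1-a2, 98.3 and 95.5 in Panc10.05 P2-a8, 98.2 and 92.1 in BxPC3 P1-a2, and 89.9 and 89.9 in BxPC3 P2-a8. In ASPC1 they were 99.2 and 95.2 (sgP1), 98.8 and 96.2 (sgP2), and 99.2 and 94.2 (sgNC). Every list thus ranked this promoter in its upper part, with BxPC3 P2-a8 lowest. At CIDEB, a lipid droplet and lipoprotein protein, the percentile ran from 89.3 to 99.8. GPR35, a G protein-coupled receptor of the gut, stood at 69.3 and 67.1 in BxPC3 P2-a8 and between 89.5 and 99.1 elsewhere. TREH, the brush-border enzyme trehalase, differed by line. Its promoter peak was at 88.7 to 97.2 in Panc10.05 and at 23.7 to 68.2 in ASPC1, and it had no P1-antibody peak. The weakest of the 8 was TMCC3, with a mean percentile of 50.6.

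Over all 22199 promoter windows, 0.356% held CAAAGTCCA, against 1.39% of the 2510 windows inside other merged regions. The share was 0.5% of 200 windows in regions of 1 list, 1.40% of 1504 in regions of 2 to 8 lists, 1.61% of 806 in regions of 9 to 13 lists and 4.43% in core regions. The AP-1 letters TGANTCA stood in 13.3% of core windows, 7.07% of windows in 9 to 13 lists, 7.18% in 2 to 8 lists, 5% in 1 list and 5.95% outside any region. Both the HNF4 and the AP-1 letters were in 4 core windows. FOXA letters (TGTTTAC) stood in 4.06% of core windows and 1.99% of windows in other regions, and ETS letters (CCGGAAGT) in 8.12% and 8.29%. TEAD letters (GGAATG) stood in 13.7% and 10.7%, and CDX letters (TTTATGG) in 1.48% and 1.35%. The letters CAAAGGTCA, which other receptors of the family also bind, stood in 0.738% of core windows, 0.837% of windows in other regions and 0.347% of all windows. GATA letters (AGATAAG) stood in 1.11%, 1.35% and 2.31%, and the full direct repeat and the CTCF motif in 0 core windows and at most 0.0496% of all. These shares describe the windows only, and windows of the same gene can overlap.

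Most merged regions were held by few lists. Of the 78074 merged regions, 21416 were in 1 list and 1188 in exactly 13. Just outside the core, 709 of those 1188 (59.7%) lacked only a BxPC3 P2-a8 list, 320 lacking replicate 1 and 389 replicate 2. Another 212 lacked only an ASPC1 sgP1 list. These 2 groups had short lists, of 12681 and 14666 peaks in BxPC3 P2-a8 and of 14038 and 11686 in ASPC1 sgP1. ASPC1 sgP2, with 12345 and 15116 peaks, was the list missing from 76 and 16 regions. The 4 strongest regions of 13 lists were near APOL2, DNAAF5, CMC1 and LOC102723655. The one 8.6 kb from DNAAF5 (chr7:794141-795803) was missing from BxPC3 P1-a2 replicate 1, stood at percentile 57.6 in replicate 2 of that group and between 91.6 and 100 in the other 12 lists.

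**Figure D1:**
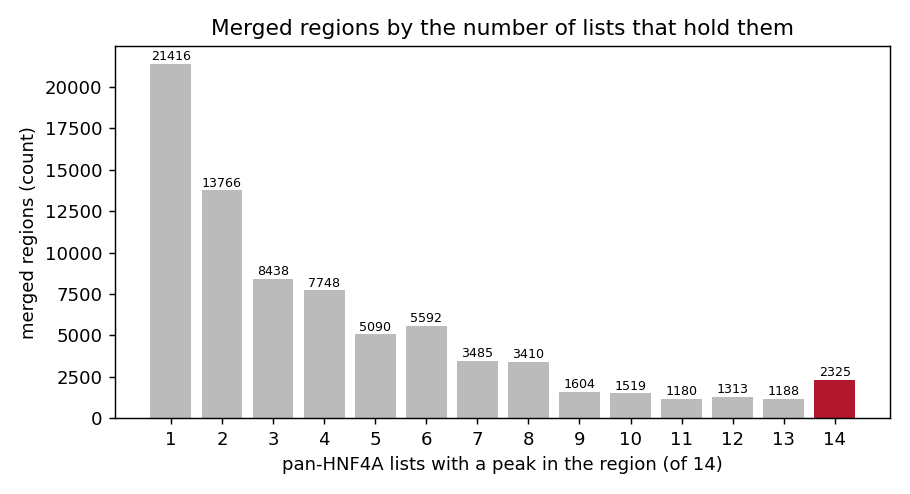
Number of merged regions (vertical axis, count) by how many of the 14 pan-HNF4A lists hold a peak there (horizontal axis), with the core in red. The highest bar is 21416 regions in 1 list and the lowest 1180 in 11 lists, and the core bar (2325) is higher than that for 13 lists (1188).

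Core regions had a median width of 1069 bp (quartiles 871 and 1398), against 959.5 bp for regions of 13 lists. In every list their peaks were wider by median than the other peaks, from 419 against 329 bp in BxPC3 P2-a8 replicate 1 to 822.5 against 424 bp in ASPC1 sgNC replicate 1. Among the core regions, 1944 (83.6%) held exactly 1 peak of each list. The summits of the 14 lists spanned a median of 102 bp (quartiles 71 and 183), and in 1134 regions (48.8%) all summits fell within 100 bp. The widest core region spanned 8365 bp, and 178 were wider than 2 kb.

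In every list the core regions ranked above the rest of the list. Their median percentile was lowest in BxPC3 P2-a8 (74.2 and 68.6) and highest in ASPC1 sgNC replicate 1 (91.5) and BxPC3 P1-a2 replicate 1 (90.6). Lists differ in length and in their lowest −log10 q, about 8 in the induced lines and about 2 in ASPC1. These medians are therefore not comparable between lists as binding strength. In fold enrichment, the medians of core and other peaks were 33.4 and 14.01 in Panc10.05 P1-a2 replicate 2, and 10.0 and 8.38 in BxPC3 P2-a8 replicate 2. Core peaks made up between 5.94% of a list (BxPC3 P1-a2 replicate 1, 41808 peaks) and 20.9% (ASPC1 sgP1 replicate 2, 11686 peaks). Presence in all lists did not mean strength in all lists. Only 50 core regions (2.15%) were above percentile 90 in all 14 lists and 777 (33.4%) above percentile 50, while 383 (16.5%) fell below percentile 10 in at least 1.

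**Figure D2:**
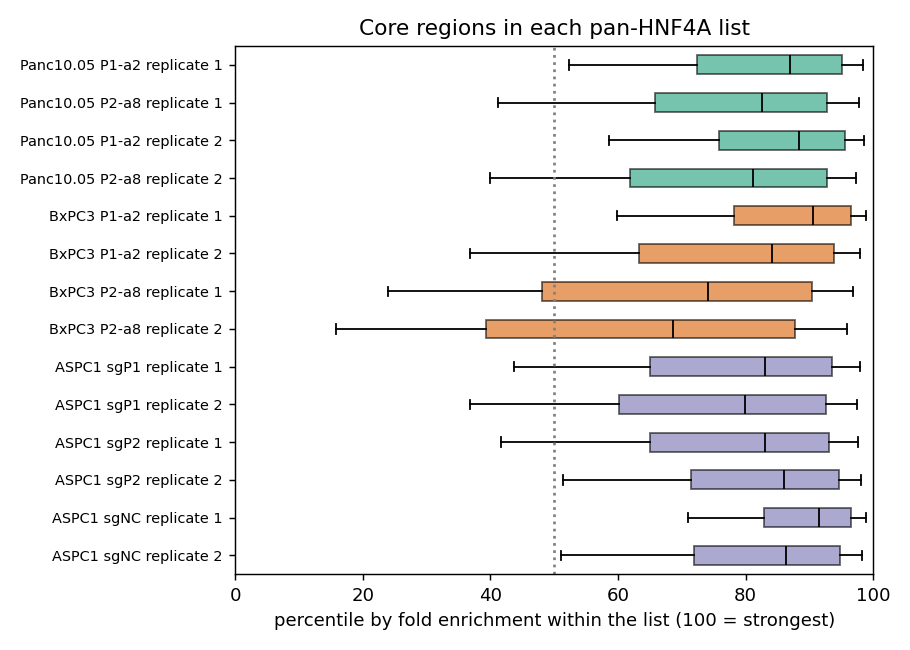
Percentile by fold enrichment of the core regions within each of the 14 pan-HNF4A lists (horizontal axis, 100 is the strongest peak), with the median (line), quartiles (box) and 10th and 90th percentiles (whiskers), coloured by cell line. The medians sit between 68.6 and 91.5, lowest in the BxPC3 P2-a8 lists.

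By its lowest percentile, the strongest core region lay inside NDST1, a heparan sulfate-modifying enzyme (chr5:150540657-150543748). Its fold enrichment was 134.9 and 145.5 in Panc10.05 P1-a2, 82.5 and 56.7 in Panc10.05 P2-a8, 45.7 and 48.4 in BxPC3 P1-a2, and 38.5 and 28.9 in BxPC3 P2-a8. In ASPC1 it was 79.4 and 40.1 (sgP1), 122.1 and 66.6 (sgP2), and 195.5 and 94.6 (sgNC). Folds are the authors' own and are not comparable between lists, but its lowest rank was percentile 99.48. The region is 3092 bp wide, and it was not in the core with a reciprocal overlap of 50% or among regions up to 2 kb. The next by their lowest percentile were 19.5 kb from SIRPA, an inhibitory receptor (chr20:1874180-1875396, lowest 98.9), and 74.8 kb from NRIP1, a nuclear receptor corepressor (chr21:15140090-15141981, 98.6). They were followed by a region 244 kb from JUN (chr1:59027619-59028785, 98.5) and by LRP5, a Wnt coreceptor (chr11:68297665-68299213, 98.5). The other 10 of the first 15 lay nearest DYRK2, IDO2, COPS8, PHLDB2, ZFP62, VDAC1, CRYM, REEP3, TBX15 and EPDR1, with lowest percentiles from 98.03 to 95.01. All 15 had a P1-antibody peak in 4 of 4 lists, beside 7.01% of all core regions. The 15 were picked by ranks that include the 6 ASPC1 lists. P1-antibody peaks, all from ASPC1, were more frequent at regions strong in that line, so this is no separate result.

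The P1-antibody lists gave a readout that had no part in choosing the core. In ASPC1 sgP2, 1768 core regions (76.0%, exact Clopper-Pearson 95% interval 74.3 to 77.8, which covers counting error only) overlapped a P1-antibody peak in replicate 1 and 1639 (70.5%) in replicate 2. In sgNC the numbers were 445 (19.1%) and 197 (8.47%). Among the 16289 other regions with a peak in at least 2 of the 6 ASPC1 pan-HNF4A lists, the shares were 16.6% and 12.6% in sgP2 and 1.21% and 0.27% in sgNC. The mean share was 73.3% ± 3.92 (SD, n = 2) in sgP2 and 13.8% ± 7.54 (SD, n = 2) in sgNC, and the groups did not overlap. The difference of 59.5 percentage points had p = 0.333 in a two-sided exact permutation test, in which 2 libraries against 2 cannot go lower. The share rose with list length. Each P1-antibody list was also shortened to its 260 strongest peaks, the length of the shortest. The shares were then 8.77% and 9.38% in sgP2 and 9.46% and 8.47% in sgNC, a difference of 0.108 points. Of the 260 peaks, 75.8% to 84.6% were in core regions. So few peaks keep the shares low and close, so this cannot decide whether genotype changes them. The lists held between 260 peaks (sgNC replicate 2) and 5200 (sgP2 replicate 1), and genotype and list length cannot be told apart.

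In all 4 P1-antibody libraries, core regions carried P1-antibody peaks more often than those 16289 other ASPC1 regions. The mean difference was 35.9 percentage points, higher in 4 of 4 libraries, with an exact sign-flip permutation p of 0.13, the smallest that 4 libraries allow. Against the 5120 other regions held by all 6 ASPC1 lists, whose shares were 43.7%, 34.6%, 3.26% and 0.508%, the mean difference was 23.01 points. Regions of exactly 13 lists lay close to those, at 46.2%, 40.6%, 4.55% and 0.673%. Of 50274 regions with no ASPC1 pan-HNF4A peak, 28, 3, 1 and 0 had a P1-antibody peak.

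**Figure D3:**
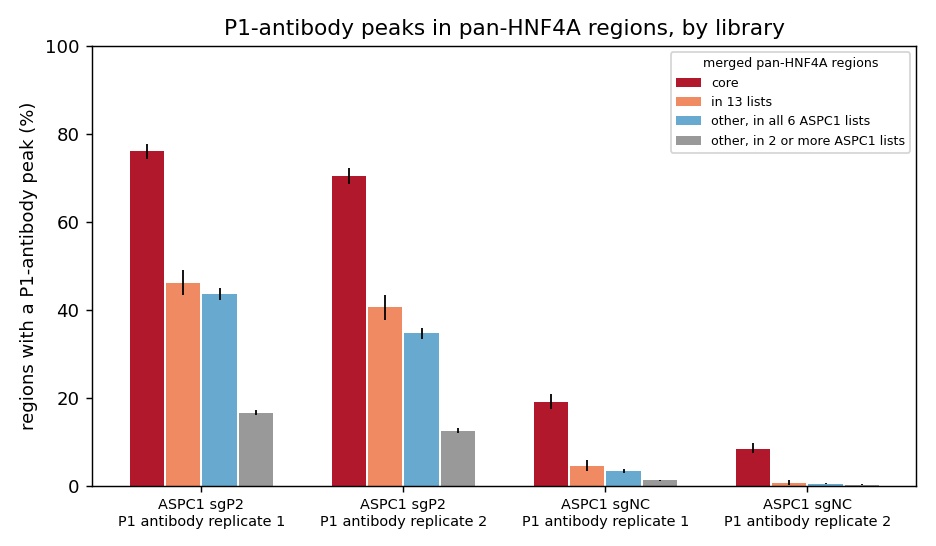
Share of merged pan-HNF4A regions that overlap a P1-antibody peak (vertical axis, percent) in each of the 4 ASPC1 P1-antibody libraries, for core regions, regions of exactly 13 lists, other regions of all 6 ASPC1 lists and other regions of at least 2. Error bars are exact 95% intervals, which cover counting error only; the core bar is the highest in each library, from 76.0% down to 8.47%.

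Core regions are also strong regions in ASPC1, so the shares were also set side by side within classes of strength. Core and other regions of all 6 ASPC1 lists were placed in 5 equal classes by their mean ASPC1 percentile. In the strongest class (928 core and 561 other regions) the shares of core and other were 97.8% and 97.0%, 97.5% and 91.8% in sgP2, and 42.0% and 19.1%, 20.8% and 3.74% in sgNC. In the middle class (399 and 1090 regions) they were 62.9% and 45.4%, and 52.4% and 33.1% in sgP2. In sgNC the middle class had 4.01% and 0.917% in replicate 1 and 0% and 0% in replicate 2. The classes are broad: the median ASPC1 percentile of core and other regions was 94.4 and 91.8 in the strongest and 71.0 and 69.9 in the middle class. In the weakest class (203 core and 1286 other regions) the sgNC shares were 0% in the core and 0.467% and 0.156% in other regions.

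Seen from the P1-antibody lists, their peaks in core regions were 1855 (35.7%) and 1698 (43.4%) of the sgP2 lists and 448 (64.3%) and 197 (75.8%) of the shorter sgNC lists. Among the 100 strongest P1-antibody peaks, 92, 87, 88 and 89 were in core regions. The median percentile within the list was 71.8 for core and 38.2 for other peaks in sgP2 replicate 1, 66.6 and 38.5 in replicate 2, 61.5 and 29.1 in sgNC replicate 1, and 57.7 and 15.4 in replicate 2. The mean difference was 34.1, higher in 4 of 4 libraries (exact sign-flip permutation p = 0.13, the smallest possible), and 11.9 with lists of equal length. The P1-antibody summit lay a median of 18 to 22 bp from the median ASPC1 pan-HNF4A summit, and within 50 bp in 83.9% of the core regions with a peak in sgP2 replicate 1.

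By the number of P1-antibody lists, 385 core regions (16.6%) had a peak in 0, 456 in 1, 1022 (44.0%) in 2, 299 in 3 and 163 (7.01%) in 4. The most common pattern, in 1009 regions, was a peak in both sgP2 lists and neither sgNC list, and the opposite pattern had 0 regions. Among the 5120 other regions of all 6 ASPC1 lists, 22.7% had the first pattern and 0 the opposite, 0.410% had a peak in all 4 lists and 47.3% in none. The 163 regions in all 4 lists had a median ASPC1 percentile of 98.1 and the 385 in none a median of 55.0. The strongest of the 163 by rank in the P1-antibody lists were 0.7 kb from PAOX, a polyamine oxidase (chr10:133377826-133379547), in NDST1, near NRIP1, 4.2 kb from LENG8 (chr19:54444495-54446801) and near SIRPA. At PAOX the pan-HNF4A percentile was 93.0 and 93.8 in Panc10.05 P2-a8, and above 99 in the other 12 lists.

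Core regions lay nearer to gene starts than other merged regions, by their median distance. The promoter windows give no starts on chromosome 8, so distances cover 2214 core regions and leave out 111. Of those, 243 (10.98%) were within 1 kb of a protein-coding gene start, against 8.42% of other merged regions, and their median distance was 27.1 kb against 40.1 kb. Regions of 13 lists (28.2 kb) and of 9 to 12 lists (25.9 kb) were close to the core. The share was higher in regions of 9 to 12 lists (15.6%) and of 13 lists (12.8%). Beyond 100 kb lay 20.0% of core and 28.8% of other regions, and 51.9% and 49.8% lay in the span of a protein-coding gene.

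Within single lists the same comparison depended on the line. The core share near a start was 10.9% to 11.8% in every list, since the regions are the same. The other peaks differed: 2.80% to 4.74% in the 4 BxPC3 lists, 7.84% to 11.01% in Panc10.05 and 15.1% to 17.8% in ASPC1. Core minus other was 2.25 ± 1.38 percentage points in Panc10.05 (SD, n = 4), 7.34 ± 0.648 in BxPC3 (SD, n = 4) and −5.05 ± 0.971 in ASPC1 (SD, n = 6). Over the 7 group means it was 0.577 points (two-sided exact sign-flip permutation p = 0.8125), and its sign turned under 5 alternative settings, so no direction is given for all lists together. The induced lines and ASPC1 differed by 9.84 points (mean 4.79 against −5.05). Over the 7 group means a two-sided exact permutation test gave p = 0.0286, the smallest that 35 regroupings allow, and groups of a line are not independent. The lowest −log10 q was about 8 in the lists of the induced lines and about 2 in ASPC1. With at least 8 in every list the difference was 8.83 points, from 2.16 ± 1.35 in Panc10.05, 7.27 ± 0.529 in BxPC3 and −4.12 ± 0.919 in ASPC1. Line and induction cannot be told apart.

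**Figure D4:**
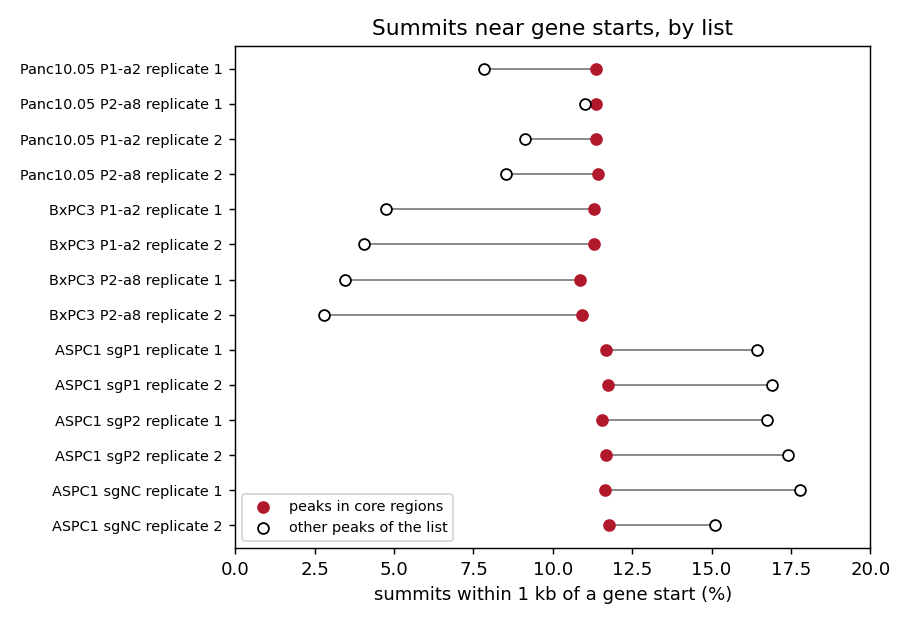
Share of summits within 1 kb of a protein-coding gene start (horizontal axis, percent) in each of the 14 pan-HNF4A lists, for peaks in core regions (filled) and the other peaks of the list (open). Filled points sit between 10.9% and 11.8% in all lists, to the right of the open points in Panc10.05 and BxPC3 and to the left in ASPC1.

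Core regions were unevenly spread over the chromosomes and over genes. They were 3.93% of merged regions on chromosome 19 and 3.805% on chromosome 20, but 1.56% on chromosome 13 and 0 of 30 on Y. With gaps of at most 20 kb, 404 core regions (17.4%) formed 189 runs of 2 or more. The 4 runs of 4 were at FBLIM1 and UQCRHL, at BCL9L, a Wnt pathway coactivator, at HM13 and ID1, and at MTHFD1L. The 2325 regions were nearest to 1882 genes, of which 335 had at least 2. TNS3, a focal adhesion protein, and LHFPL2 had 5 each. All 5 regions of TNS3 had a P1-antibody peak in at least 1 list, beside 83.4% of all core regions. Of the 5 of LHFPL2, whose mean percentile was 54.2, 0 did. Of the 20 genes with at least 4, NRIP1, RHOU and BCL9L came next by mean percentile among those with 4, with means of 92.6, 83.7 and 83.6.

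Genes were looked up in 10 lists of epithelial, liver, metabolic, circadian, basal and proliferation genes. The lists were chosen with earlier results of these data known, so the shares below are description only. A core region within 50 kb of the gene's span was found for 96 of 296 listed genes (32.4%), beside 3811 of all 20037 protein-coding genes (19%). Within 10 kb it was 55 of 296 (18.6%), beside 9.22% of all genes. Listed genes have a median span of 28.0 kb and all genes 24.1 kb, and a region near several genes counts for each. The count was 14 of 27 for tight junction and adhesion genes, 11 of 26 for xenobiotic metabolism and transport, 9 of 23 for glucose and amino acid metabolism, 13 of 34 for gastrointestinal epithelial markers and 14 of 37 for circadian and nuclear receptor genes. It was 8 of 27 for basal and squamous genes, 8 of 29 for plasma protein and coagulation genes, 7 of 32 for endoderm transcription factors, 7 of 36 for lipid and bile acid genes and 5 of 25 for proliferation genes. The shares of endoderm factors (21.9%), lipid (19.4%) and proliferation genes (20%) are near the 19% of all genes. Within 10 kb, plasma protein genes (6.90%) were below the 9.22% of all genes. Lipid (11.1%), basal (11.1%) and endoderm genes (12.5%) were near it, and the remaining lists stood at 16% to 33.3%.

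Among the transcription factors, CREB3L3, a liver and gut factor of lipid metabolism, had a region 0.172 kb away with a lowest percentile of 83.5. The region 20.9 kb from GATA6, a factor of the classical pancreatic tumour program, had a mean of 82.5 but stood at 25.8 and 22.3 in BxPC3 P2-a8. EHF held a core region in its span (mean 82.6), and those of GATA5 (71.9) and TCF7L2 (64.8) were 13.7 and 0.84 kb away.

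Among intestinal and lipid genes, ACSL5, which activates long-chain fatty acids, held a region in its span (chr10:112379327-112380598) with a mean percentile of 97.5, from 85.9 to 99.9, and P1-antibody peaks in 4 lists. Another region with P1-antibody peaks in 4 lists lay 1.89 kb from MOGAT2 and 33.9 kb from DGAT2, both enzymes of triglyceride synthesis (mean 94.2). DPP4, GPA33 and ANPEP, proteins of the intestinal cell surface, had regions in their spans with means of 94.9, 92.9 and 92.1. The regions of CDH17 (91.2) and MUC13 (91.04) were 25.0 and 26.7 kb away, and that of CDHR2 (90.2) was in its span. The region given for MUC13 lay in the span of ITGB5. Other lipid genes were PPARA (89.1, in its span) and CPT1A (81.1, 13.4 kb away). Of the glucose and amino acid genes, ASS1 (79.1) and PFKFB3 (77.7) held regions in their spans. Those of PCK2 (91.8), SLC2A1 (89.1), HK1 (85.4) and G6PC1 (71.1) were 9.91, 21.7, 40.5 and 6.35 kb away.

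Of the transport and drug metabolism genes, the efflux pump ABCG2 (mean 95.3) and the xenobiotic receptor NR1I2 (84.6) held regions in their spans. Those of the anion transporter SLC22A7 (95.004), UGT1A1 (85.3) and CYP2B6 (75.8) were 17.7, 8.89 and 10.9 kb away. Of the coagulation genes, PROC, which encodes protein C, had a region 26.1 kb away with a mean of 97.8, and PROS1 one in its span (93.7). In the same gene list, whose members are not all coagulation or plasma protein genes, HNMT, F8, KNG1 and C3 had 89.1, 79.8, 76.9 and 67.8. HNMT and C3 are not coagulation genes. Tight junction and polarity genes reached 98.2 near LLGL2 (35.4 kb away), 95.8 in F11R, 91.5 in TJP3, 90.4 in PATJ, 85.1 near CGN and 82.1 in CLDN4. NPAS2 and THRB held regions in their spans (90.7 and 89.0), and those of TEF (94.5) and NR2F1 (91.2) were 15.3 and 43.3 kb away. A region 17.6 kb from THRA and 10.9 kb from NR1D1 stood at 85.2.

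Of the basal program, COL17A1 held a region in its span (mean 84.8), and GLI2, LAMB3 and DSG3 had regions 10.9, 10.6 and 11.96 kb away (84.1, 78.4 and 67.9). Those of S100A2 (90.8) and TP63 (63.7) were 43.1 and 40.5 kb away. Some of these regions lie closer to other genes: that of S100A2 contains a promoter of S100A16, and that of DSG3 is 7.52 kb from DSG2. Of the 27 basal genes, 29.6% had a core region within 50 kb, beside 19% of all genes, and 11.1% within 10 kb, near the 9.22% of all genes. The proliferation list had ERBB3 at 98.2, MKI67 at 93.5 (30.75 kb away), SMAD3 at 82.1 and EGFR at 61.1, and a region 0.201 kb from MYC at 85.4, with a range of 38.7 to 99.3.

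Of 1562 RefSeq miRNA hairpins, 7 (0.448%) overlapped a core region and 90 any merged region. MIR192 and MIR194-2, microRNAs of intestine and liver, share 1 core region (chr11:64890918-64892242, minus strand hairpins). It stood at 78.6 to 99.4 in the 14 lists, with P1-antibody peaks in 3 of 4. Their mature sequences from RefSeq are shown, with the seed (bases 2 to 8) in capitals, because this is the 1 core region with a pair of different hairpins, and the seeds differ.
hsa-miR-192-5p: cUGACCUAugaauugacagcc
hsa-miR-194-5p: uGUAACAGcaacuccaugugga

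To compare the order of the core regions between lists, each region was ranked among the core regions of the list. Over the 2325 regions, Spearman's rho between replicates was 0.51 to 0.63 for BxPC3, 0.75 to 0.80 for Panc10.05 and 0.81 to 0.84 for ASPC1. Between groups of a line it was 0.52 to 0.61, 0.64 to 0.69 and 0.77 to 0.81, in the same order. Between lines it fell to 0.11 to 0.48. These are descriptions across regions, which are not independent replicates; lists of a line share its cells and its calling threshold. In BxPC3 the values between the isoforms overlapped those between replicates.

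**Figure D5:**
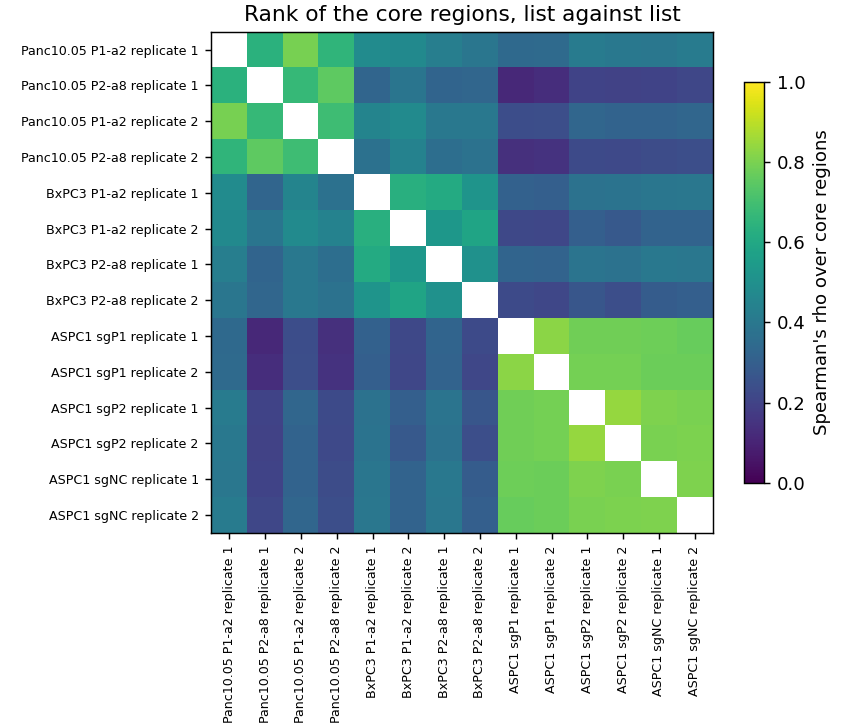
Spearman's rho (colour, 0 to 1) of the rank of the 2325 core regions between each pair of the 14 pan-HNF4A lists, with the diagonal left blank. Values within ASPC1 are 0.77 to 0.84, replicates of Panc10.05 reach 0.80, and values between ASPC1 and Panc10.05 are 0.11 to 0.42.

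Isoforms were then compared by whether a region's percentiles among core regions overlapped between the 4 P1-a2 and the 4 P2-a8 lists. In 38 regions (1.63%) the P1-a2 lists were all higher and in 31 (1.33%) all lower. Over the 5628 regions present in all 8 lists, ranked among themselves, the shares were 2.11% and 1.71%, so the core count is near the background. Ranked among those 5628 regions rather than among core regions, 51 core regions (2.19%) were higher and 23 (0.989%) lower. At a region 20.3 kb from CALB2, which encodes calretinin (chr16:71337925-71339080), the P1-a2 percentiles were 73.1 and 80.0 in Panc10.05 and 87.0 and 94.8 in BxPC3. The P2-a8 percentiles were 20.9 and 30.2, and 46.1 and 38.9. The groups are separated by 27.0 points. Near NEK2, a mitotic kinase, and TSC22D1 the gaps were 20.6 and 19.2. In the opposite direction, at MB21D2 (chr3:192851645-192852393) the P1-a2 percentiles were 19.4, 35.9, 49.7 and 25.8 and those of P2-a8 83.0, 80.7, 70.6 and 80.8, a gap of 20.9. NIBAN2 and EHMT1 had gaps of 15.5 each, H2BC9 9.4 and TRIM31 8.6. With lists of equal length by fold, the regions of CALB2, TSC22D1, MB21D2, NIBAN2 and EHMT1 were not in the core. Leaving out any 1 of the 8 lists of the induced lines raised the total of 69 to between 117 and 211, the highest without BxPC3 P2-a8 replicate 1. Fewer lists make non-overlap easier to meet, so a rise follows from the rule, and no background is given for these counts.

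Within 1 line, replicates of 2 against 2 do not overlap in many regions. Ranked among core regions, the shares in the core were near the background, which is ranked among all regions of the comparison. Ranked in that same way, some core shares were far from it. In Panc10.05, where dose differs too, P1-a2 was higher in 540 core regions (23.2%) and lower in 553 (23.8%), beside 25.4% and 24.2% of 18704 regions. This split depends on the ranking. Ranked among all 18704 regions rather than among core regions, 1042 core regions (44.8%) were higher and 201 (8.65%) lower in P1-a2. In BxPC3 the counts were 395 and 406 (16.99% and 17.5%, beside 18.5% and 18.8%), and 371 and 404 (15.96% and 17.38%) ranked among all regions. For ASPC1, sgP1 was higher than sgNC in 467 core regions (20.1%) and lower in 480 (20.6%), beside 20.9% and 19.8%. Ranked among all regions, the counts were 377 (16.2%) and 604 (26.0%), below and above the background. For sgP2 over sgNC the counts were 466 (20.04%) and 438 (18.84%), beside 19.7% and 18.6%. In the ranking among all regions they were 439 (18.88%) and 470 (20.22%), nearer to the background. For sgP1 over sgP2 the counts were 482 (20.73%) and 473 (20.34%), beside 20.5% and 20.1%. In the ranking among all regions they were 396 (17.03%) and 581 (24.99%), again below and above the background. These 3 comparisons share libraries.

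The cell lines were compared in the same way. In 140 core regions all 8 lists of the induced lines ranked above all 6 ASPC1 lists and in 112 below (6.02% and 4.82%; these lists share no regions but the core, so the background is the core itself). With a common −log10 q of at least 8 in all lists, the counts were 109 and 92 of 2050 core regions. In AKAP19 (chr2:190136181-190136992) the percentile among core regions was 85.2 to 98.9 in the induced lines and 0.7 to 23.5 in ASPC1, a gap of 61.7. At LAMB3, a laminin chain of basal epithelium (chr1:209662569-209663556), it was 79.0 to 95.4 against 4.6 to 19.4, a gap of 59.6. FRK, HIPK2 and SLCO2A1 had gaps of 56.5, 52.2 and 47.3. Of these 5 regions, the 1 in AKAP19 had P1-antibody peaks in 2 lists and the other 4 had 0. The regions of AKAP19, FRK and HIPK2 were not in the core at that common threshold, and those of LAMB3 and SLCO2A1 not at 20. In the opposite direction, JPH2 (chr20:44186275-44188108) was at 71.3 to 94.8 in ASPC1 and 0.8 to 22.8 in the induced lines. EPS8L3, an actin regulator of the brush border (chr1:109762920-109764598), was at 79.1 to 95.9 against 2.2 to 37.4. PDXDC1, GRB10 and RABGGTB had gaps of 36.1, 31.8 and 31.6, and all 5 regions had P1-antibody peaks in 2 to 4 lists. These 5 were not in the core with lists of equal length by fold. All P1-antibody libraries are from ASPC1, and both sets of 5 were picked by a gap that includes their rank there. In sgP2, 19.2% and 16.3% of core regions in the weakest ASPC1 class had a P1-antibody peak. In the strongest class the shares were 97.8% and 97.5%. The contrast between the sets is therefore no separate result. Over all core regions, 16.6% had a P1-antibody peak in 0 lists, 44.0% in 2, 12.9% in 3 and 7.01% in 4. Between the induced lines, Panc10.05 was higher than BxPC3 in 215 core regions (9.25%) and lower in 194 (8.34%), beside 8.8% and 8.55% of 5628 regions. Ranked among all of those 5628, 249 core regions (10.7%) were higher and 170 (7.31%) lower.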

How the data were processed

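ChIP-seq peak lists of 18 libraries were used (14 pan-HNF4A, 4 P1-antibody); 14 input libraries were not used here. Per the submitters' processing notes, Bowtie2 2.2.9 and MACS2 2.2.7 were used and hg38 and mm10 are named, with no role given. Read depth and the control used for calling are not given in the sources used here, so the depth behind each list is unknown. The authors deposited 1 list per library, called per sample, in which each peak has a score (an integer), a fold enrichment (a linear ratio) and −log10 p and −log10 q values.

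From these, peaks of the 14 lists were merged by 1 bp and ranked by fold within each list. Gene spans and promoter windows are from RefSeq (GRCh38.p14), with 20037 protein-coding genes, of which 15843 have a start. Region lists, tests and gene lists were chosen with earlier results of these data known. Named regions were the 15 with the highest lowest percentile, the 5 strongest in all 4 P1-antibody lists, the 5 with the largest gap in each comparison and direction, the 5 genes with the most regions (ties by mean percentile), up to 6 genes per gene list, and the 4 strongest of 13 lists. A few regions and genes that fall under this rule are not reported here. Tests are exact permutation tests over libraries or groups. The merging was tested on simulated data (300 of 300 planted core regions found, 0 wrong) and against bedtools 2.31.1 (0 differing regions). Python 3.11.15, numpy 2.4.6, pandas 2.3.3 and scipy 1.17.1 were used. Alternatives were other q thresholds, list lengths, overlap rules, widths, distances and left-out libraries.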

Additional observations from a re-analysis of the deposited data

Results flagged for a closer look

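The difference between core and other peaks in the share of summits within 1 kb of a gene start differed between the lines. It was 9.84 percentage points higher in the induced lines than in ASPC1 (mean 4.79 against −5.05). A two-sided exact permutation test over 7 group means gave p = 0.0286, the smallest it allows. Groups of a line are not independent, and this test was chosen after seeing the data. Every list of the induced lines had a higher share in core peaks and every ASPC1 list a lower one. The core shares were 10.9% to 11.8% in all lists, so the difference lies in the other peaks. With a −log10 q of at least 8 in every list it was 8.83 points. Line and induction cannot be told apart. No group has more than 2 libraries, so single libraries could not be tested as outliers.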

How the results depend on the processing

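The number of core regions was 1175 with a −log10 q of at least 20 in every list, 949 and 1221 with lists of equal length by fold and by −log10 p, 933 with a reciprocal overlap of 50% and 1493 with summits within 100 bp. Under those settings, in the same order, 34, 25, 32, 27 and 45 regions did not overlap in rank between P1-a2 and P2-a8, against 69 (2.97% of 2325). The core was smaller under each of these settings, so the lower counts do not show a lower share. The start share of core minus other peaks, 0.577 points, turned to −1.06 with lists of equal length by fold, −4.15 with reciprocal overlap, −1.29 with summits within 100 bp, −0.92 for regions up to 2 kb and −0.026 for unmerged peaks of the shortest list. The cause was not tested. With a −log10 q of at least 8 in every list, it was 0.928 points and the core held 2050 regions. Of 37 named regions, 23 (reciprocal overlap) to 37 (unmerged peaks of the shortest list) stayed in the core under these settings. Within 10 kb of a core region lay 55 listed genes: 4 endoderm factors, 9 gastrointestinal, 4 lipid, 5 glucose and amino acid, 7 xenobiotic, 2 plasma protein, 9 tight junction, 8 circadian and nuclear receptor, 3 basal and 4 proliferation genes, with shared regions counted for each. Leaving out 1 library in turn gave 2324 to 2714 core regions, 69 to 211 regions not overlapping between the isoforms, P1-antibody differences of 54.1 to 64.8 points (sgP2 minus sgNC) and 28.0 to 45.1 points (core minus other), rank differences of 31.4 to 36.1 and start shares of 0.032 to 2.00 points. With 1 list of the induced lines fewer, non-overlap between the isoforms is easier to meet, so a higher count there follows from the rule. Pairing sgP2 and sgNC by replicate number (replicate block) gave the same 59.5 points with an exact p of 0.5, the smallest 2 pairs allow. Both P1-antibody differences from other regions kept their sign under all settings run. The planned share of summits on an HNF4 motif was not run, since it needs a genome; promoter windows were searched instead, which was chosen after seeing the data, as were the equal-length P1-antibody lists and, for the lines, group means and the common threshold. Depth is unknown and lists of different length limit every count of shared regions.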
